A study of Mus musculus with 18 samples.

Results

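The 7 genes described here encode proteins of 2 DNA repair pathways that have been tied to methylation of histone H3 at lysine 36. Msh6, Msh3 and Pms2 belong to mismatch repair, and Rbbp8, Brca1, Palb2 and Brca2 to homologous recombination. They were taken by gene symbol, each was found once among the 20325 genes of each deposited table, and all 7 passed the filter on low values in every comparison. RNA was sequenced from C3H10T1/2, a multipotent mesenchymal line of mouse embryo origin, in 18 libraries of 6 groups. 3 groups were cultured lines with a stably expressed FLAG-HA-tagged histone at passage 10 to 15, with 2 libraries each. They carried wild-type H3.3, H3.3K36M or H3.1K36M, where K36M replaces lysine 36 by methionine. Another 2 cultured groups of 3 libraries each were C3H10T1/2 cells given either a control siRNA or siRNAs against the lysine 36 methyltransferases Nsd1, Nsd2 and Setd2, called HMT siRNA here. The last group was 6 tumors, grown from 2000000 H3.3K36M cells mixed with Matrigel and placed under the skin of both flanks of athymic female SCID mice aged 6 to 8 weeks, and taken after 5 to 6 weeks. Each histone was represented by a single line, no line with wild-type H3.1 was analysed here, and the promoter driving the tagged histones is not given in the labels. The labels do not say which tumors shared a mouse, nor whether the libraries of a cultured group came from separate cultures, so p-values measure the spread between libraries, which may be technical.

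Mismatch repair removes bases wrongly inserted during DNA replication. MSH6 and MSH3 sit in separate complexes that recognise mismatches, MSH6 single mispaired bases and short loops and MSH3 longer loops, and PMS2 belongs to the complex that nicks the new strand. In human cells, MSH6 binds trimethylated lysine 36 through its PWWP domain, and SETD2 is the enzyme that makes that mark. Homologous recombination copies an intact sister strand to repair a double-strand break. CtIP, the product of Rbbp8, starts the trimming of the broken ends, BRCA1 promotes that trimming and recruits PALB2, and PALB2 brings in BRCA2, which prepares the trimmed end for strand exchange. In human cells, LEDGF, encoded by Psip1, binds methylated lysine 36 and helps to bring CtIP to breaks. Genes of both pathways are commonly most expressed in dividing cells around S phase, in part through E2F factors.

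The start regions of 4 of these genes are printed because they differ in the E2F-type octamer that many S phase genes carry. The sequences come from RefSeq on GRCm38.p6, a later build than that of the deposited values, and a window of 250 bases before to 50 after the start was found for 6 of the 7 genes. The octamer was searched on both strands as TTTCCCGC, TTTGGCGC, TTTCGCGC or TTTGCCGC, together with the CCAAT box and the GC box GGGCGG. Of all 32851 windows, 2.26% held the octamer, 37.4% a CCAAT box and 35.7% a GC box. The octamer occurred 1 time in Msh6, 2 times in Msh3, where the 2 matches overlap, and 1 time in Brca2, and these letters were not in the windows of Brca1, Pms2 and Palb2. A CCAAT box was in the windows of Msh6, Pms2, Brca1 and Palb2. The GC box was in those of Msh6, Msh3, Pms2 and Palb2, and not in those of Brca1 and Brca2. Each sequence below runs 5′ to 3′ along its gene without the last 20 bases of the window, and capitals mark octamers and CCAAT boxes on either strand.
Msh6, chr17:87974800-87975079, plus strand: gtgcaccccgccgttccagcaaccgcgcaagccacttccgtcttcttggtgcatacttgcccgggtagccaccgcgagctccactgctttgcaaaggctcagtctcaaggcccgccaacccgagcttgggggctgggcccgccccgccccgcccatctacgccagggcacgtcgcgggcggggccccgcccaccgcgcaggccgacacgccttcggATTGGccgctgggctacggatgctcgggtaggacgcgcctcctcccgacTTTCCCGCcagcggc
Msh3, chr13:92354974-92355253, minus strand: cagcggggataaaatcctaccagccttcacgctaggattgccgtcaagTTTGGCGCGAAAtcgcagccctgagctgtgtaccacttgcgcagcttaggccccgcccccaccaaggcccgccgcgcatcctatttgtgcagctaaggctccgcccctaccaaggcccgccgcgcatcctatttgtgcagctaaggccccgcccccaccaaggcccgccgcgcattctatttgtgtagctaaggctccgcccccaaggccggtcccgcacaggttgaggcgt
Brca1, chr11:101551926-101552205, minus strand: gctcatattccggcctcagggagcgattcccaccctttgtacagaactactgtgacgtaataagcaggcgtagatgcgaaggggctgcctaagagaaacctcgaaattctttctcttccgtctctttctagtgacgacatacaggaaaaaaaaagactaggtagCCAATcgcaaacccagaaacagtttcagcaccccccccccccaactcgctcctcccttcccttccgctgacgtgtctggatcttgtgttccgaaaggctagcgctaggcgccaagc
Brca2, chr5:150522371-150522650, plus strand: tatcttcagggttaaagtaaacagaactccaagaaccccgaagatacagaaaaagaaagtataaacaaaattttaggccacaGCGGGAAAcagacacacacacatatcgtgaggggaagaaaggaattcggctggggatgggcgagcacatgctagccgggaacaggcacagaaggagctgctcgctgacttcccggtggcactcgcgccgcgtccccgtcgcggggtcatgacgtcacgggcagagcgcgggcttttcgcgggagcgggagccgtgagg

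The deposited values are estimated read counts divided by a library scaling factor, called normalised counts here. They are not divided by gene length, so a level is compared only between libraries of 1 table and never between genes. The libraries held 13993307 to 56041798 estimated reads. Among replicates, log2 values correlated at 0.996 to 0.999 in cultured groups, tumor 6 stood apart from the other tumors at 0.950 to 0.966, and tumors 1 to 5 correlated at 0.982 to 0.994 with each other. In the 4 cultured H3.3 libraries, 76.9% to 78.9% of values worth 1 to 20 reads were whole numbers of reads, within 0.01 of a read, against 84.2% to 86.6% in the other 14, and the labels give no batch for this. Setd2 fell from 3247 ± 145 normalised counts (SD, n = 3) with control siRNA to 1134 ± 82.0 (n = 3) with HMT siRNA, Nsd1 from 4723 ± 310.1 to 3279 ± 125, and Whsc1, the table's symbol for Nsd2, from 1588 ± 21.3 to 1059 ± 54.6. All 8 mesenchymal markers listed, such as the collagen genes Col1a1 and Col1a2, were above 0 in every cultured group. Their levels were not alike, with 3 higher and 4 lower in H3.3K36M than in wild-type H3.3 cells by the tests used below. Tests below are limma's moderated tests on log2(normalised count + 1), which slightly understates changes of low genes, with Benjamini-Hochberg adjustment over all genes tested and a threshold of 0.05.

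H3.3K36M cells held more RNA of Msh6, Msh3, Rbbp8 and Brca1 than cells with wild-type H3.3, while Pms2, Palb2 and Brca2 did not pass the test. With HMT siRNA all 7 genes were higher than with control siRNA. Thus 4 of 7 rose in H3.3K36M cells, where 37.5% of 13186 genes tested were called higher, and 7 of 7 rose with HMT siRNA, where 32.6% of 12634 were. No member was called lower, where limma called 33.3% and 32.8% of all genes lower. All 7 estimates were above 0 in both comparisons, whether or not they passed. The median log2 of all genes tested was 0.02 for H3.3K36M and -0.002 for HMT siRNA. These comparisons share no library, and both stand in 1 table fitted with 10 libraries.

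Among the mismatch repair genes, Msh6 read 1283 and 1258 normalised counts in the wild-type H3.3 libraries and 2225 and 2295 in the H3.3K36M libraries. With siRNA it read 941, 919 and 958 in the controls and 1703, 1617 and 1679 after HMT siRNA. The 4 groups did not overlap, and the order from lowest to highest was control siRNA, wild-type H3.3, HMT siRNA and H3.3K36M. The rise was 0.83 ± 0.05 (log2 ± SE, adjusted p = 2.39e-11) in H3.3K36M cells and 0.83 ± 0.04 (adjusted p = 4.64e-13) with HMT siRNA. Msh3 read 385 and 351 in wild-type H3.3, 639.7 and 683 in H3.3K36M, 359, 341 and 363 in the controls and 523, 496 and 549 with HMT siRNA. Its wild-type H3.3 and control libraries overlapped, and its H3.3K36M libraries lay above all others. Msh3 rose by 0.85 ± 0.08 on the log2 scale (adjusted p = 1.57e-08) in H3.3K36M cells and by 0.56 ± 0.06 (adjusted p = 2.12e-07) with HMT siRNA. Pms2 moved least, with 232 and 234 in wild-type H3.3, 256 and 250.3 in H3.3K36M, 179, 203 and 189 in the controls, and 270.0, 243 and 259 with HMT siRNA. Its 2 H3.3K36M libraries lay just above the wild-type ones and within the range of HMT siRNA. The log2 difference was 0.12 ± 0.10 (adjusted p = 0.278) for H3.3K36M, whereas with HMT siRNA Pms2 rose by 0.43 ± 0.08 (adjusted p = 8.77e-05).

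Of the homologous recombination genes, Rbbp8 read 572 and 557 in wild-type H3.3, 779 and 872 in H3.3K36M, 443, 395 and 505 in the controls, and 793, 747 and 806 with HMT siRNA. Its H3.3K36M and HMT siRNA libraries overlapped each other and lay above both reference groups. It rose by 0.55 ± 0.09 on the log2 scale (adjusted p = 2.84e-05) in H3.3K36M cells and by 0.81 ± 0.07 (adjusted p = 6.72e-09) with HMT siRNA. Brca1 read 799.5 and 764 in wild-type H3.3, 1546 and 1609 in H3.3K36M, 428, 344 and 337 in the controls, and 905, 776 and 935 with HMT siRNA. Here HMT siRNA reached only the region of the wild-type H3.3 line, with overlapping libraries, and H3.3K36M stood well above both. Brca1 had the largest log2 rise of the 7 in both comparisons, 1.01 ± 0.10 (adjusted p = 1.59e-07) in H3.3K36M cells and 1.24 ± 0.08 (adjusted p = 1.74e-09) with HMT siRNA. Palb2 was the lowest in reads, with 33 to 41 estimated reads per control library behind its values. It read 129 and 123 in wild-type H3.3, 136 and 153 in H3.3K36M, 57.7, 51.4 and 57.1 in the controls, and 123, 92.5 and 111 with HMT siRNA. Only the control libraries stood apart clearly from the rest. Its log2 difference was 0.20 ± 0.15 (adjusted p = 0.261) for H3.3K36M, and with HMT siRNA it rose by 0.96 ± 0.13 (adjusted p = 1.64e-06). Brca2 read 599 and 598 in wild-type H3.3, 627 and 687 in H3.3K36M, 323, 316 and 311 in the controls, and 536, 508 and 609 with HMT siRNA. The lower H3.3K36M library lay above the wild-type pair by less than the 2 H3.3K36M libraries differed from each other. The controls were low. Brca2 differed by 0.13 ± 0.08 (adjusted p = 0.158) for H3.3K36M and rose by 0.79 ± 0.07 (adjusted p = 2.38e-09) with HMT siRNA.

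**Figure D1:**
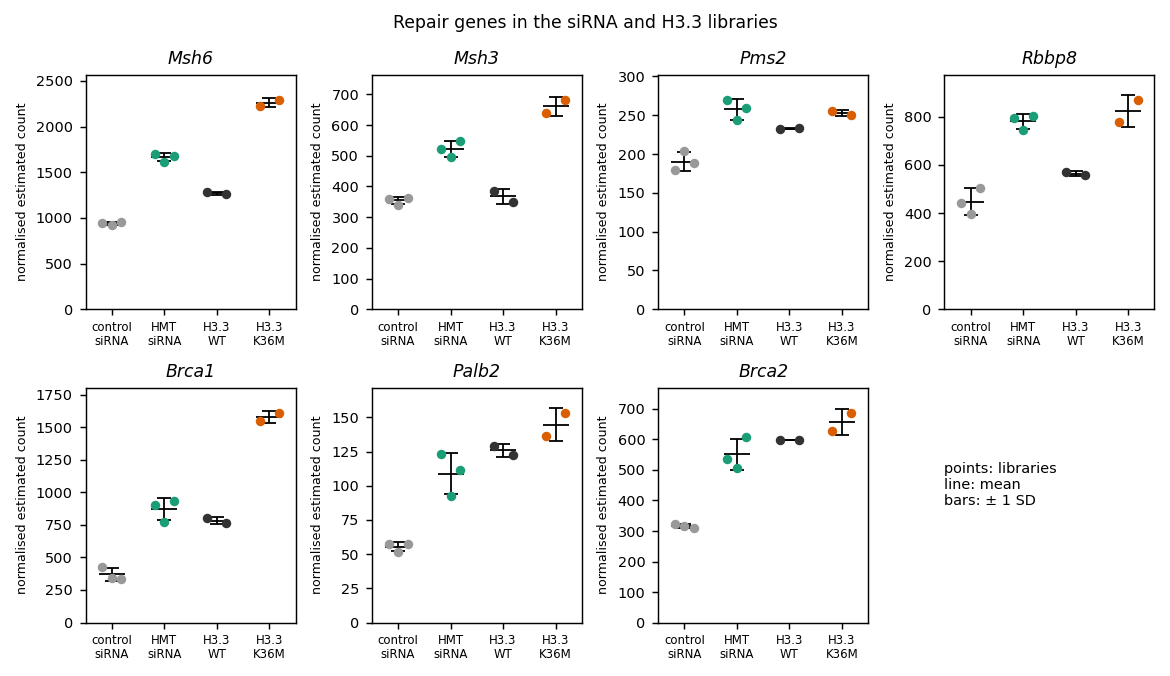
Normalised estimated counts of the 7 repair genes in the 10 libraries of the siRNA table, with 1 panel per gene and the y axis starting at 0. Points are libraries, lines are means and bars are ± 1 SD, for control siRNA (n = 3), HMT siRNA (n = 3), wild-type H3.3 (n = 2) and H3.3K36M (n = 2). Control libraries are lowest for every gene but Msh3, where they overlap wild-type H3.3, and for Brca1 the H3.3K36M libraries, at 1546 and 1609, lie above all others.

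The partners of these proteins moved with them in part. In H3.3K36M cells, 13 of 19 other mismatch repair genes rose and 4 fell, with a median log2 of 0.38 against 0.02 for all genes tested. Rpa1, a subunit of the protein that coats single-stranded DNA, rose by 0.97, the nick-sealing ligase gene Lig1 by 0.96, and the polymerase delta subunit gene Pold2 by 0.76. Of the other homologous recombination genes tested, 17 of 27 rose and 3 fell (median 0.35), led by Mre11a, an end-trimming nuclease, at 0.83, the exonuclease gene Exo1 at 0.72 and the helicase gene Blm at 0.68. With HMT siRNA, 14 of 19 other mismatch repair genes rose and 2 fell (median 0.74), led by Exo1 at 1.74, Mlh3, a MutL homolog gene, at 1.55 and Lig1 at 1.28. Likewise 21 of 27 other homologous recombination genes rose and 3 fell (median 0.53), among them Exo1, which is in both lists, and the junction resolvase gene Gen1 at 1.36. End-joining genes, the competing route of break repair, split evenly, with 4 rises and 5 falls of 13 in H3.3K36M cells and 6 rises and 5 falls of 13 with HMT siRNA. In the Fanconi anaemia list, whose proteins act on DNA crosslinks, 7 of 12 rose and 2 fell in H3.3K36M cells, and 8 rose and 1 fell with HMT siRNA.

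Genes of DNA replication and mitosis also differed between the same groups. Of 30 S phase genes, 28 rose in H3.3K36M cells (median 0.60) and 29 with HMT siRNA (median 1.17), and none fell. The 20 mitosis genes gave 17 rises and 1 fall in H3.3K36M cells (median 0.32) and 20 rises with HMT siRNA (median 1.43). Their S phase sum was 40650.0 and 42644 normalised counts in the wild-type H3.3 libraries, 64461 to 64788 in H3.3K36M, 22213 to 23623 in the controls and 45874 to 49365 with HMT siRNA. The mitosis sum was 75978 to 80955 in wild-type H3.3, 105618 to 107689.6 in H3.3K36M, 23798 to 27424 in the controls and 68234 to 72484 with HMT siRNA. Groups did not overlap in the S phase sums of either comparison, and the part of cell division in the changes of the 7 repair genes was not tested. In these bulk libraries more cells in a phase and more RNA per cell cannot be told apart.

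The test of the difference between both responses, H3.3K36M minus wild type set against HMT siRNA minus control, asks whether a gene moved by different amounts. Msh6 did not pass, with a difference of 0.00 ± 0.06 on the log2 scale (adjusted p = 0.964). Brca2 and Palb2 rose less in H3.3K36M cells than with HMT siRNA, by a log2 difference of -0.66 ± 0.11 (adjusted p = 3.75e-05) for Brca2 and -0.76 ± 0.20 (adjusted p = 0.00363) for Palb2. Pms2 also differed at -0.31 ± 0.13 (adjusted p = 0.0415), and the rise of Msh3 was larger in H3.3K36M cells, at 0.29 ± 0.10 (adjusted p = 0.0205). Rbbp8 at -0.26 ± 0.12 (adjusted p = 0.0626) and Brca1 at -0.23 ± 0.13 (adjusted p = 0.155) did not pass. So the difference was called above 0 for 1 of 7 and below 0 for 3 of 7, where it was for 27.5% and 27.4% of 13186 genes. For a gene that fell in both comparisons, a difference above 0 means a smaller fall. The S phase list gave 0 larger and 22 smaller responses of 30 (median -0.47) and the mitosis list 0 larger and 20 smaller of 20 (median -1.13). The Msh3 call was lost without wild-type replicate 2 (adjusted p = 0.111), H3.3K36M replicate 2 (adjusted p = 0.105) or HMT siRNA replicate 2 (adjusted p = 0.0557). The Pms2 call was lost with equal library totals (adjusted p = 0.0916) and in most fits that left out a single library, at adjusted p up to 0.116, while that for Brca1 passed without HMT siRNA replicate 2 (adjusted p = 0.0440) or control replicate 1 (adjusted p = 0.00979), and that for Rbbp8 without H3.3K36M replicate 2 (adjusted p = 0.0365) or control replicate 3 (adjusted p = 0.00529).

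The reference groups differed from each other before any mutant or knockdown is considered. Wild-type H3.3 cells were higher than control siRNA cells for 6 of 7 genes, where 30.4% of 13186 genes were called higher and 28.4% lower. The log2 differences were 1.17 ± 0.14 for Palb2 (adjusted p = 1.01e-06), 1.09 ± 0.09 for Brca1 (adjusted p = 3.43e-08) and 0.92 ± 0.07 for Brca2 (adjusted p = 5.25e-09). They were smaller for Msh6 at 0.44 ± 0.04 (adjusted p = 1.14e-07), Rbbp8 at 0.34 ± 0.08 (adjusted p = 0.00164) and Pms2 at 0.29 ± 0.09 (adjusted p = 0.00880), and Msh3 stood at 0.05 ± 0.07 (adjusted p = 0.557). Of 30 S phase genes, 29 were higher in wild-type H3.3 cells (median 0.86), as were all 20 mitosis genes (median 1.67). Tagged histone, transfection, and whatever separates the 4 cultured H3.3 libraries in their shares of whole reads cannot be told apart here. This comparison shares its libraries with both responses above.

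Cells with H3.1K36M, the same substitution in the histone variant made mainly during replication, had higher RNA of all 3 mismatch repair genes, Rbbp8 and Brca1 than wild-type H3.3 cells, and lower Brca2. In the xenograft table, Msh6 read 1726 and 1704 in wild-type H3.3, 2934 and 3029 in H3.3K36M, and 2377 and 2443 in H3.1K36M. Msh3 read 517 and 475 in wild-type H3.3, 843 and 901 in H3.3K36M, and 762 and 829 in H3.1K36M, and Pms2 read 312 and 316, 337 and 330.4, and 414 and 414. H3.1K36M libraries lay above wild-type H3.3 for all 3 of these genes, and only for Pms2 did they also lie above H3.3K36M. Of 13404 genes tested, 46.1% had both H3.1K36M libraries above both wild-type ones and 43.4% above both H3.3K36M ones. Against wild-type H3.3 the log2 rise in H3.1K36M cells was 0.49 ± 0.04 for Msh6 (adjusted p = 1.96e-08), 0.68 ± 0.07 for Msh3 (adjusted p = 2.22e-07) and 0.40 ± 0.07 for Pms2 (adjusted p = 0.000189).

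The recombination genes of H3.1K36M cells went different ways. Rbbp8 read 769 and 754 in wild-type H3.3, 1027 and 1151 in H3.3K36M, and 1129 and 1073 in H3.1K36M. Both K36M lines overlapped for Rbbp8, and the H3.1K36M rise was 0.53 ± 0.06 on the log2 scale (adjusted p = 1.04e-06). Brca1 read 1076 and 1034, 2038 and 2124, and 1340.3 and 1302 in the same order, so that H3.1K36M lay between the H3.3 lines, with a rise of 0.32 ± 0.05 (adjusted p = 1.25e-05) over wild type. Brca2 read 806 and 810.0 in wild-type H3.3, 826 and 907 in H3.3K36M, and 529 and 549 in H3.1K36M. The H3.1K36M libraries were the lowest cultured ones of the xenograft table for Brca2, which fell by 0.58 on the log2 scale (SE 0.06, adjusted p = 4.68e-07). Palb2 read 174 and 166, 179.7 and 202, and 171 and 150.5, with H3.1K36M overlapping wild type, at a log2 difference of -0.08 ± 0.11 (adjusted p = 0.522). In all, 5 of 7 genes were higher and 1 lower in H3.1K36M than in wild-type H3.3 cells, where 41.1% of 13404 genes were higher and 38.4% lower. Of 30 S phase genes 24 rose and 1 fell (median 0.30), whereas of 20 mitosis genes 1 rose and 15 fell (median -0.32). Among the other mismatch repair genes 10 of 19 rose and 2 fell, and among the other recombination genes 11 of 27 rose and 8 fell, the largest changes being Rad51l1, a strand exchange gene, at -1.31 and Mre11a at 0.99.

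Set directly against H3.3K36M, H3.1K36M cells were higher for Pms2 and lower for Msh6, Brca1 and Brca2. The log2 difference was 0.31 ± 0.07 for Pms2 (adjusted p = 0.00198), -0.31 ± 0.04 for Msh6 (adjusted p = 6.99e-06), -0.66 ± 0.05 for Brca1 (adjusted p = 1.20e-08) and -0.68 ± 0.06 for Brca2 (adjusted p = 1.67e-07). Msh3 at -0.13 ± 0.07 (adjusted p = 0.0888), Palb2 at -0.25 ± 0.11 (adjusted p = 0.0693) and Rbbp8 at 0.02 ± 0.06 (adjusted p = 0.803) did not pass. That is 1 of 7 higher and 3 of 7 lower, where 35.4% of 13404 genes were higher and 32.8% lower. With library totals made equal, Msh3 (-0.22, adjusted p = 0.0101) and Palb2 (-0.33, adjusted p = 0.0192) were also called lower, and with quantile normalisation Msh3 was (-0.16, adjusted p = 0.0422). The S phase sum was 85087 to 85413 in H3.3K36M and 71348 to 71794 in H3.1K36M, and the mitosis sum was 139241 to 142146 and 87497 to 87903. All 20 mitosis genes were lower in H3.1K36M cells (median -0.64), and their part in the repair gene differences was not tested. The H3.1K36M libraries also differ from those of both H3.3 lines in their shares of whole reads.

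**Figure D2:**
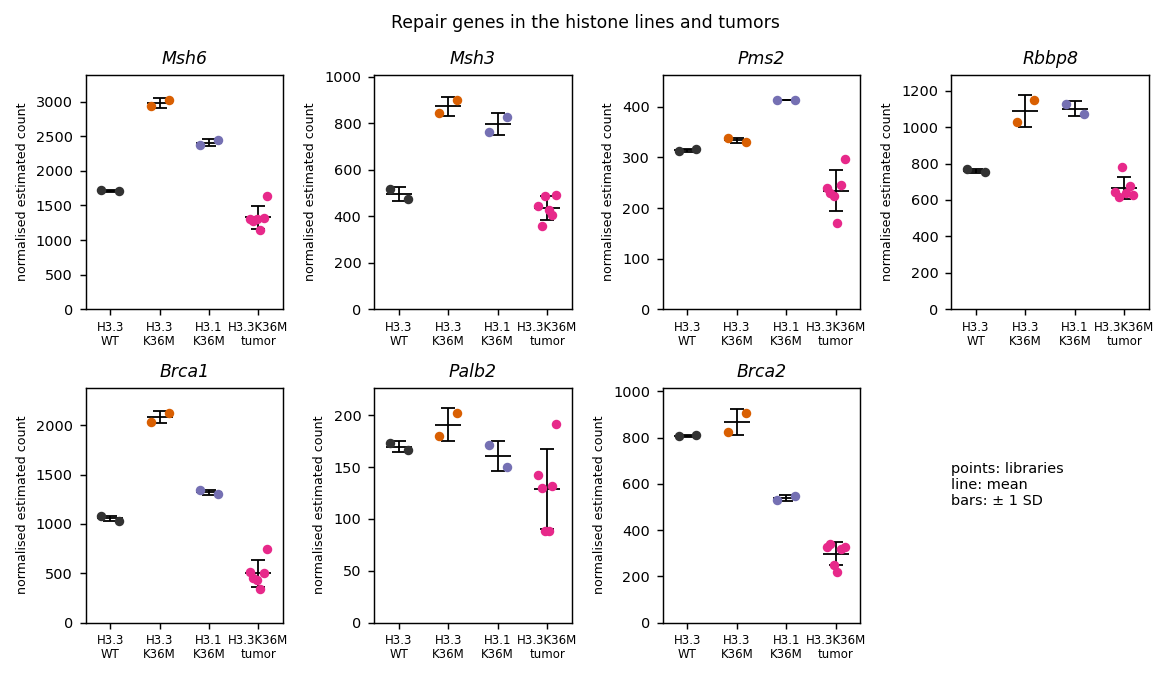
Normalised estimated counts of the 7 repair genes in the 12 libraries of the xenograft table, with 1 panel per gene and the y axis starting at 0. Points are libraries, lines are means and bars are ± 1 SD, for wild-type H3.3, H3.3K36M and H3.1K36M cells (n = 2 each) and H3.3K36M tumors (n = 6). Tumor libraries lie lowest for Msh6, Pms2, Brca1 (336 to 749) and Brca2 (219.6 to 342). Brca2 is lower in H3.1K36M (529 and 549) than in the other cultured lines.

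In tumors grown from the H3.3K36M cells, 6 of the 7 genes were lower than in the cultured cells and Palb2 did not pass the test. All genes tested numbered 14842, of which 34.2% were called lower and 41.0% higher. Brca1 dropped farthest, from 2038 and 2124 in cells to between 336 and 749 in tumors, with a median of 477, a log2 change of -2.10 ± 0.24 (adjusted p = 4.88e-05). Brca2 ran from 219.6 to 342 in tumors with a median of 322, against 826 and 907 in cells, and fell by 1.56 on the log2 scale (SE 0.19, adjusted p = 5.92e-05). Neither gene's tumor libraries overlapped the cells. Palb2 ran from 88.0 to 192 with a median of 131 against 179.7 and 202 in cells, and overlapped through tumor 6, at -0.62 ± 0.29 (adjusted p = 0.0822). Without tumor 6 the Palb2 difference was -0.74 (adjusted p = 0.0129), with quantile normalisation it was -1.14 (adjusted p = 0.00226), and in a fit of all 12 libraries of the table its adjusted p was 0.0477. Rbbp8 ran from 614 to 779 with a median of 641 against 1027 and 1151, and changed by -0.72 ± 0.12 (adjusted p = 0.000382).

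All 3 mismatch repair genes were lower in tumors than in the cultured cells. Msh6 ran from 1145 to 1633 in tumors with a median of 1299.8, against 2934 and 3029 in cells, a log2 change of -1.17 ± 0.13 (adjusted p = 2.79e-05). Msh3 ran from 359 to 491 with a median of 434 against 843 and 901, at -1.01 ± 0.14 (adjusted p = 0.000131). Pms2 ran from 171 to 297 with a median of 235 against 337 and 330.4, at -0.53 ± 0.19 (adjusted p = 0.0302). None of the 3 overlapped between tumors and cells, and of all 14842 genes tested 35.8% had every tumor library below both cell libraries. The Pms2 call was lost without H3.3K36M replicate 1 (adjusted p = 0.137) or 2 (adjusted p = 0.119), tumor 2 (adjusted p = 0.0508) or tumor 3 (adjusted p = 0.0521). Tumor 6 was the highest of the 6 for Msh6, Msh3, Pms2, Brca1 and Palb2, and tumor 4 the lowest for Msh6, Pms2, Brca1, Palb2 and Brca2.

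The tumors also held RNA of markers of other cell types. Host and implanted cells are both mouse, so their transcripts are counted together and the source of a marker cannot be told. Summed over 8 macrophage markers such as Csf1r and Lyz2, the level was 513 to 514 normalised counts in H3.3K36M cells and 105172 to 146299 in tumors, and 8 of 8 were higher in tumors. The 8 endothelial markers summed to 551 to 610 in cells, where Cldn5 was at 0, and to 10211 to 29570 in tumors, with 7 of 8 higher. Markers of red cells (836 to 885 against 7664 to 19469, 4 of 5 higher), keratinocytes (145 to 167 against 161 to 29440, 4 of 5 higher) and skeletal muscle (382 to 406 against 719 to 20312, 4 of 5 higher) moved the same way. The lymphoid and NK markers, with Cd3e, Ncr1 and Gzma among those at 0 in cells, rose from 5.88 to 6.54 in cells to 1271 to 5635 in tumors, with 5 of 5 tested higher. The 8 mesenchymal markers summed to 756983 to 809546 in cells and 278375 to 333922 in tumors, with 5 lower and 2 higher. Division genes were lower too, with S phase sums of 43067 to 56302 in tumors (19 of 30 lower, 3 higher, median -0.59) and mitosis sums of 33154 to 59399.5 (18 of 20 lower, none higher, median -1.61), against a median of 0.14 for all genes. The parts of host RNA and of cell division in the lower repair RNA were not tested. Tumor libraries also differ from the H3.3K36M cell libraries in their shares of whole reads. Among the other recombination genes 16 of 27 were lower and 4 higher, led by Gen1 at -2.96 and the break-sensing kinase gene Atm at -2.47. Of the other mismatch repair genes 9 of 19 were lower and 4 higher, led by Pold4, a polymerase delta subunit, at 1.97 and Exo1 at -1.73.

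**Figure D3:**
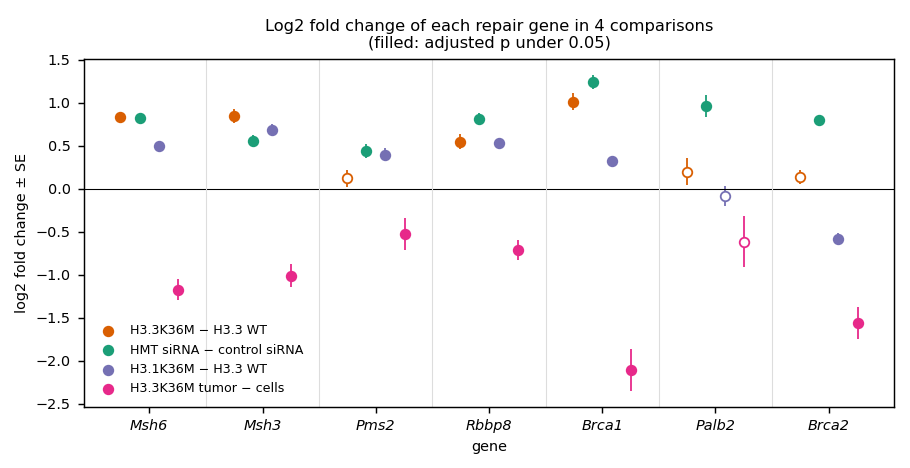
Log2 fold change ± SE (y axis) of each repair gene (x axis) in 4 comparisons, from limma. Filled points passed an adjusted p of 0.05 and open points did not. Pms2, Palb2 and Brca2 are open for H3.3K36M minus wild type, Palb2 is open for H3.1K36M and tumors, and all 7 are filled above 0 for HMT siRNA. The H3.3K36M and H3.1K36M comparisons share the wild-type libraries, and the tumor comparison shares the H3.3K36M libraries.

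**Figure D4:**
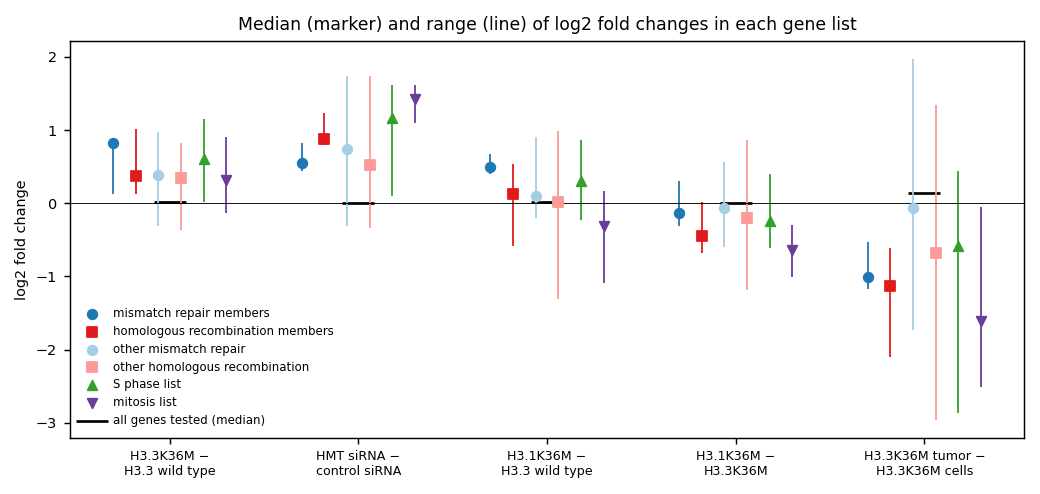
Median (marker) and lowest to highest value (line) of log2 fold changes in each gene list (y axis), by comparison (x axis), with black dashes at the median of all genes tested. The S phase and mitosis medians lie above 0 for H3.3K36M and HMT siRNA and below 0 for tumors, while in H3.1K36M minus wild-type H3.3 the S phase median is 0.30 and the mitosis median -0.32.

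Ratios taken within a library do not depend on its scaling, and they separated Brca1 from Brca2. The Brca1 to Brca2 ratio of normalised counts was 1.28 to 1.34 in wild-type H3.3 libraries, 2.34 to 2.47 in H3.3K36M and 2.37 to 2.53 in H3.1K36M. It was 1.08 to 1.32 with control siRNA and 1.53 to 1.69 with HMT siRNA. Both K36M lines thus overlapped in this ratio, although both genes were lower in H3.1K36M than in H3.3K36M cells, and their ratios lay apart from those of wild-type H3.3. The 6 tumors gave 1.31 to 2.28 with a median of 1.58, all below the H3.3K36M cells. The Msh6 to Msh3 ratio was 3.34 to 3.59 in wild-type H3.3, 3.36 to 3.48 in H3.3K36M and 2.95 to 3.12 in H3.1K36M, and it was 2.62 to 2.69 with control and 3.06 to 3.26 with HMT siRNA. The Msh6 to Msh3 ratios of both H3.3 lines overlapped, while those of control and HMT siRNA lay apart. Ratios are given as descriptions with no test.

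**Figure D5:**
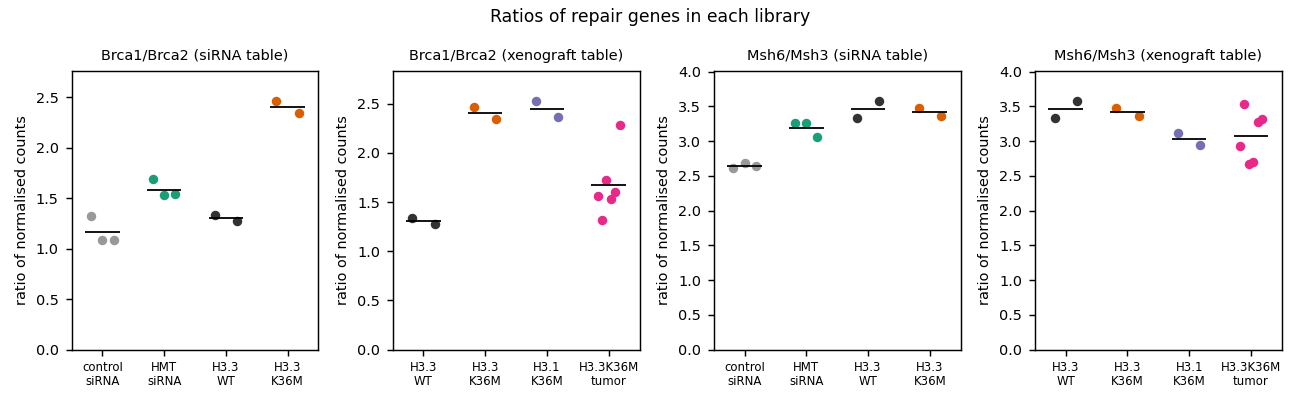
Ratio of normalised counts (y axis, from 0) of Brca1 to Brca2 and of Msh6 to Msh3 in each library, by group (x axis), for the siRNA and xenograft tables. Points are libraries and lines are group means. The Brca1 to Brca2 ratio is 2.34 to 2.53 over the 4 K36M cultured libraries and 1.28 to 1.34 in wild-type H3.3.

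Several of the 7 genes lie head to head with a neighbour, and the neighbours did not all move with them. The labels do not say whether counting used strand, so reads where Msh3 and Msh6 overlap a neighbour in RefSeq are uncertain. Nbr1, an autophagy receptor gene beside Brca1, stood at -0.06 ± 0.04 (adjusted p = 0.182) in H3.3K36M cells and fell by 0.29 (SE 0.03, adjusted p = 2.36e-07) with HMT siRNA, where Brca1 rose. Dctn5, a dynactin subunit gene beside Palb2, changed by -0.14 ± 0.06 (adjusted p = 0.0391) and -0.12 ± 0.05 (adjusted p = 0.0309), and in tumors it rose by 0.92 ± 0.11 (adjusted p = 4.27e-05). Aimp2, a gene of the tRNA synthetase complex beside Pms2, rose by 0.61 ± 0.07 (adjusted p = 1.60e-07) in H3.3K36M cells, by 0.44 ± 0.05 (adjusted p = 6.97e-07) with HMT siRNA and by 0.85 ± 0.06 (adjusted p = 2.11e-09) in H3.1K36M cells. The RefSeq table gave no close neighbour for Brca2 or Rbbp8, and Zar1l, listed as a candidate partner of Brca2, was too low to test.

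Among 9 chromatin genes listed for lysine 36, 2 rose and 5 fell in H3.3K36M cells, and 2 rose and 4 fell with HMT siRNA. The list includes targets of those siRNAs, such as Setd2 and Whsc1, so part of the falls with HMT siRNA is the knockdown itself. In H3.1K36M against wild-type H3.3 cells 3 rose and 4 fell, and in tumors 2 rose and 5 fell. The enzymes and the LEDGF gene are given here because of their links to these pathways. Psip1 rose by 0.59 ± 0.05 (adjusted p = 7.23e-09) in H3.3K36M cells and by 0.66 ± 0.04 (adjusted p = 2.73e-11) with HMT siRNA, beside the rise of Rbbp8. In H3.1K36M cells Psip1 stood at 0.00 ± 0.04 (adjusted p = 0.953) against wild-type H3.3 while Rbbp8 rose, and in tumors Psip1 fell by 2.07 on the log2 scale (SE 0.22, adjusted p = 2.66e-05). Setd2 fell by 0.22 (SE 0.06, adjusted p = 0.00258) and Whsc1 rose by 1.07 ± 0.05 (adjusted p = 6.32e-13) in H3.3K36M cells, while Nsd1 stood at 0.11 ± 0.05 (adjusted p = 0.0781). In H3.1K36M cells Setd2 fell by 0.39 (SE 0.04, adjusted p = 8.77e-08), and Whsc1 at 0.79 ± 0.03 (adjusted p = 7.63e-12) and Nsd1 at 0.21 ± 0.04 (adjusted p = 8.20e-05) rose. In tumors all 3 were lower than in the cells, Setd2 at -1.29 ± 0.16 (adjusted p = 6.63e-05), Whsc1 at -0.77 ± 0.15 (adjusted p = 0.00114) and Nsd1 at -0.71 ± 0.12 (adjusted p = 0.000455).

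The genes whose levels most resembled each member were found among 12988 genes by Pearson's r of log2 values, taking the smaller r of the 10 libraries of the siRNA table and the 12 of the xenograft table, which share the 4 cultured H3.3 libraries. For Msh6 these were Chek1, a checkpoint kinase gene (0.980 and 0.990), and Otud7b (0.977 and 0.993). For Brca1 they were Mms22l (0.993 and 0.995) and Fignl1 (0.990 and 0.994), and for Brca2 the mitotic genes Dlgap5 (0.987 and 0.990) and Kif20a (0.982 and 0.981). Msh3 was closest to Steap1 (0.985 and 0.966) and G3bp1 (0.966 and 0.966), and Pms2 to Zw10 (0.952 and 0.969) and Prim2 (0.935 and 0.973). Rbbp8 was closest to Kif2a (0.960 and 0.957) and Wdr36 (0.956 and 0.955), and Palb2 to Nptxr (0.934 and 0.930) and Ncaph (0.962 and 0.925). Within the set, Msh6 and Brca1 had r of 0.966 and 0.974, and Msh6 and Msh3 0.955 and 0.957. Brca2 and Palb2 had 0.982 and 0.786, and Rbbp8 and Palb2 only 0.817 and 0.456. These values describe libraries grouped by condition, and few independent conditions lie behind them.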

How the data were processed

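RNA was sequenced from 18 libraries made by the Illumina TruSeq protocol, per the labels. The submitters' processing notes name Bowtie 1.0.0, RSEM 1.2.12 and the mouse build mm9, without their settings. The authors deposited 3 tables of median-normalised signal, that is estimated counts divided by a factor per library, each scaled on its own. No raw counts were used, so no count model was fitted, and values were compared within a table only. All 26 sample columns were matched to samples by name, and no column was left over.

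limma 3.58.1 in R 4.3.3 was fitted to log2(value + 1) with trended, robust variances and two-sided tests, on genes that reached 10 in a number of libraries no smaller than the smaller group compared. The 10 libraries of the siRNA table, the 6 cultured libraries of the xenograft table and the 8 H3.3K36M cell and tumor libraries were fitted separately, with no covariate. p-values were adjusted by Benjamini-Hochberg over all genes tested. Every one of the 7 repair genes is named in every comparison, and of the other lists the counts are given, with up to 3 of the genes that changed most past the threshold. The 7 genes and all lists were chosen with earlier results of these data known. Some genes of the lists are not reported here by name. The fits were tested on simulated data. Alternatives were other pseudocounts (0.5 and 10), no low-value filter, quantile normalisation, equal library totals, untrended variances, replicate number as a block, other sets of libraries in the fit, and each library left out in turn. For equal totals, each library was rescaled to 1 common sum, the mean total of its table, so that the pseudocount and filter kept their scale. Motifs were searched and plots drawn with Python 3.11.15.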

Additional observations from a re-analysis of the deposited data

Results flagged for a closer look

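Both values concern single tumors among the 6 grown from H3.3K36M cells, and such a test picks out about 1 in 20 groups by chance. For Msh6, tumor 6 was the highest at 1633 normalised counts, and its gap to the next tumor was 0.631 of the whole range of the group, above the critical value of Dixon's test at 95%. For Rbbp8, tumor 3 was the highest at 779, with a gap of 0.636 of the range.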

How the results depend on the processing

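The counts of repair genes called in H3.3K36M minus wild type, HMT siRNA minus control, wild type minus control and H3.1K36M minus wild type stayed within 1.5 times the reported value under every alternative run. In the difference of both responses, the count of genes with a larger response in H3.3K36M ranged from 0 to 1 when single libraries were left out. For H3.1K36M minus H3.3K36M, equal library totals gave 5 genes lower in place of 3. Directions turned only for differences that never passed the test. Over left-out libraries, Msh6 in the difference of both responses ranged from -0.018 to 0.026, Msh3 in wild type minus control from -0.015 to 0.12, Palb2 in H3.1K36M minus wild type from -0.17 to 0.0097, and Rbbp8 in H3.1K36M minus H3.3K36M from -0.064 to 0.10. Quantile normalisation gave 0.14 for that Palb2 difference and -0.018 for that Rbbp8 difference, and equal totals gave -0.068 for the latter. In tumors minus cells, 5 to 7 genes were called lower across alternatives, and equal totals moved the median of all genes from 0.14 to -0.06 and quantile normalisation to -0.12, and the cause was not tested. Replicate numbers showed at most weak pairing of the libraries. Same-numbered siRNA libraries deviated together at r of 0.021, 0.170 and 0.049, against -0.141 to 0.099 for siRNA libraries with other numbers. Same-numbered libraries of the cultured histone lines gave -0.030 to 0.032. With the replicate block, Rbbp8 passed in the difference of both responses (adjusted p = 0.0212), and Pms2 did not (adjusted p = 0.0556). For tumors minus cells, the block makes the difference rest on tumors 1 and 2 alone, the only ones sharing a number with a cell library. There Palb2 passed (-0.48, adjusted p = 0.0365), so that 7 of 7 genes were called lower, which says nothing of the remaining tumors. Depth limits Palb2 most.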

Other observations

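In H3.3K36M against wild-type H3.3 cells, the largest log2 changes past the threshold (limma, adjusted p under 0.05) were Xrcc5 at -0.97, Mad2l2 at 0.97 and Xrcc6 at 0.68 among end-joining genes, and Fancb at 1.19, Fancf at -1.02 and Fanca at 0.63 in the Fanconi list. Mcm2 at 1.16 and Cdt1 at 1.11 led the S phase genes, and Top2a at 0.91 and Aurkb at 0.67 the mitosis genes. With HMT siRNA, Polq at 1.39 led end joining, Mcm5 at 1.62 the S phase genes and Top2a at 1.61 the mitosis genes, and Fancb rose by 1.40 in the Fanconi list. Between both responses, Polq at -0.99, Fancf at -1.40, Ccne2 at -1.21 and Cenpf at -1.41 differed most. That difference is the H3.3K36M change minus the HMT siRNA change, and genes are counted here only where it passed the threshold. It was called above 0 for 1 and below 0 for 3 of 13 end-joining genes, and above for 3 and below for 6 of 12 Fanconi genes. The calls were above for 2 and below for 10 of 19 other mismatch repair genes, and above for 4 and below for 12 of 27 other recombination genes. Of 9 chromatin genes, 4 were called above and 4 below.

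In wild-type H3.3 against control siRNA cells, 16 of 19 other mismatch repair genes were higher and 1 lower, 19 of 27 other recombination genes higher and 3 lower, 3 of 13 end-joining genes higher and 3 lower, 9 of 12 Fanconi genes higher, and 6 of 9 chromatin genes higher and 2 lower. Exo1 at 1.38, Bard1 at 1.44, Polq at 1.14, Ube2t at 1.90, Tk1 at 1.46 and Cenpf at 1.95 were among the largest log2 differences of their lists. In H3.1K36M against wild-type H3.3 cells, 4 of 13 end-joining genes rose and 3 fell, led by Xrcc6 at 1.16, and 4 of 12 Fanconi genes rose and 6 fell, led by Fancb at 1.46. Rpa1 at 0.91, Mcm2 at 0.86 and Ccnb2 at -1.09 changed most among the other mismatch repair, S phase and mitosis genes.

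In H3.1K36M against H3.3K36M cells, 2 of 19 other mismatch repair genes were higher and 9 lower, 4 of 27 other recombination genes higher and 14 lower, 6 of 13 end-joining genes higher and 3 lower, 2 of 12 Fanconi genes higher and 6 lower, 3 of 30 S phase genes higher and 23 lower, and 1 of 9 chromatin genes higher and 5 lower. Rfc5 at -0.60, Rad54b at -1.18, Xrcc5 at 0.57, Fancg at -0.77, Tk1 at -0.61 and Nusap1 at -1.01 differed most or nearly so in their lists. In tumors against H3.3K36M cells, 3 of 13 end-joining genes were higher and 9 lower, led by Rif1 at -2.81, and 1 of 12 Fanconi genes was higher and 7 lower, led by Fancd2 at -2.68. Ccne2 at -2.86 and Cenpe at -2.51 were the largest S phase and mitosis changes in tumors. Of 4 neighbouring genes tested, 2 rose and 1 fell in H3.3K36M cells, 2 rose and 2 fell with HMT siRNA, 2 rose and 1 fell in H3.1K36M against wild-type H3.3 cells, and 2 rose and 2 fell in tumors. In wild-type H3.3 against control siRNA cells 2 of these 4 were higher, and in H3.1K36M against H3.3K36M cells 2 were higher and 2 lower. Between both responses the difference passed the threshold above 0 for 1 and below 0 for 1.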
